A study of Mus musculus with 4 samples.

Results

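The mRNAs of 8 aldehyde dehydrogenases, Aldh1b1, Aldh2, Aldh3a1, Aldh3a2, Aldh7a1, Aldh9a1, Aldh16a1 and Aldh18a1, were followed through an RNA immunoprecipitation experiment on Caprin-1, out of 12967 gene symbols measured. The genes were chosen by symbol, summing all transcript entries of a symbol, and all 8 had values. The list was built around Aldh3a1, which was selected on measured values, its lower mRNA level in cells with the CerS4 shRNA and its place among the highest genes over IgG in those cells. Its values in those comparisons are therefore a description and support nothing by themselves.

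The cells were 4T1, a mouse mammary carcinoma line, grown under puromycin and with a stable shRNA in each line. In the line called shSCR it was the one the labels name SCR, used as the control, and in the line called shCerS4 it targeted CerS4, a ceramide synthase of sphingolipid metabolism. Antibodies to Caprin-1, which binds RNA and takes part in stress granules, or control IgG were used to precipitate RNA from both lines. This gave 4 libraries, 1 per group. The study asked about the complex of PD-L1 with Caprin-1 and mRNA binding under altered lipid metabolism, and set the Caprin-1 precipitates of the lines against each other. No difference below has a replicate check, and whether either line was a single clone is not given in the sources used here.

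Aldehyde dehydrogenases oxidise reactive aldehydes to carboxylic acids with NAD or NADP as the acceptor. Some members clear aldehydes from lipid peroxidation, ethanol or foreign compounds, and others carry out a defined step in the metabolism of sphingolipids, lysine, carnitine or proline. Cells of mammary tumours are often sorted by aldehyde dehydrogenase activity, to which several members of the family can contribute.

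Estimated depth was 19.7 to 27.0 M reads per library, and levels are given in CPM, the reads of a gene per 1e+06 reads of its library. Brackets after a log2 ratio hold its 95% interval from counting error. Amplification and the variation of separate cultures are not in it. The call past 2-fold required a ratio of at least 2-fold and an interval that excluded 0. It was made over 10283 genes, those whose mean reached 5 CPM. Cers4 itself was not analysed here, so the knockdown was not checked. All 7 epithelial markers had values, with summed levels of 5086 to 10188 CPM per library. Among 6 immune markers only Cd68 had values, at 14.6 to 49.1 CPM, and 4 of 5 fibroblast markers together stood at 20.1 to 66.9 CPM. Of 3 endothelial markers only Kdr had values, 0.666 CPM in shSCR IgG and 0 in the other libraries. Some markers differed between the lines: past 2-fold, Krt8 was lower in both precipitates (−1.30 with Caprin-1 and −1.12 with IgG), Cldn4 was higher in both (2.22 and 2.12), Cdh1 was higher with Caprin-1 (1.06) and Cd68 was lower with Caprin-1 (−1.75, and −0.79 with IgG). The part of these markers in the results was not tested. In a bulk precipitate, fewer cells with an mRNA and less of the mRNA per cell cannot be told apart.

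Of the 8 mRNAs, 7 passed the filter of 5 CPM. Aldh1b1, a mitochondrial acetaldehyde dehydrogenase, did not, with a mean of 1.42 CPM, and its 17.0, 67.0, 23.0 and 29.0 estimated reads were too few for more than a description. They belong, in this order, to the IgG and Caprin-1 libraries of shSCR cells and then to those of shCerS4 cells. Its highest value, 2.48 CPM, was in shSCR Caprin-1, and the other libraries lay between 0.857 and 1.18 CPM.

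**Figure D1:**
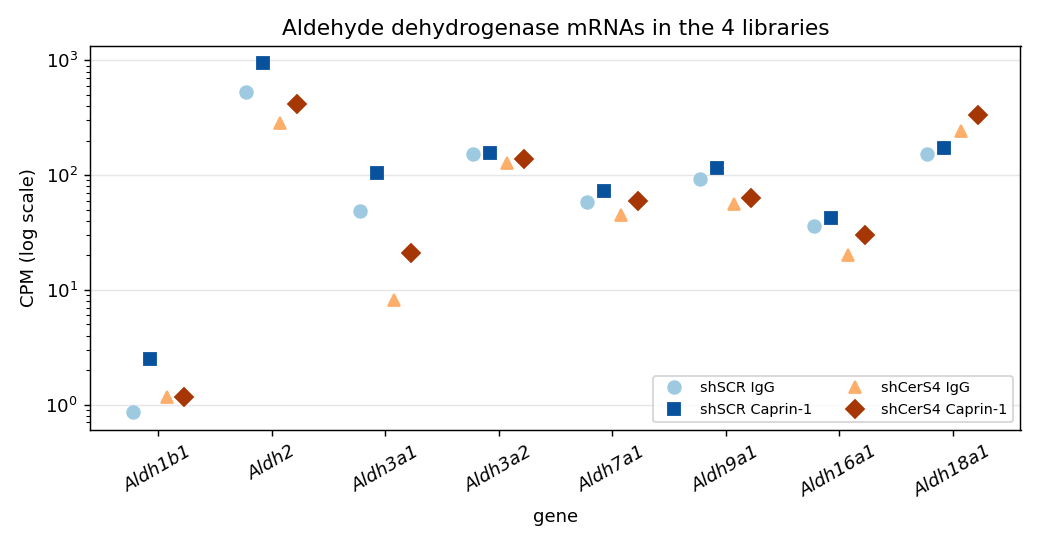
Level of each aldehyde dehydrogenase mRNA in CPM (log axis) in the 4 libraries, 1 point per library. Aldh3a1 spans 8.13 to 104 CPM, and Aldh18a1 is the gene with both shCerS4 libraries above both shSCR libraries.

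Aldh3a1 encodes an enzyme that oxidises aromatic and medium-chain aldehydes and is abundant in the cornea and stomach. Its mRNA stood at 49.1 CPM in shSCR IgG and 104 CPM in shSCR Caprin-1, and at 8.13 CPM in shCerS4 IgG and 21.1 CPM in shCerS4 Caprin-1. Both shSCR libraries were above both shCerS4 libraries, and in each line the Caprin-1 library was above the IgG library. The estimated reads behind these levels were 973, 2799, 160 and 520. Between the Caprin-1 precipitates the level was 4.91-fold lower in shCerS4 cells, a log2 ratio of −2.30 [−2.43, −2.16], and between the IgG precipitates it was 6.02-fold lower, at −2.59 [−2.84, −2.35]. Of the 10283 genes compared, 46 had a lower ratio with Caprin-1 and 31 with IgG.

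Aldh2, the mitochondrial enzyme that oxidises acetaldehyde and lipid aldehydes, had the next lowest ratio among the 7 genes in both precipitates. It stood at 530.3 CPM in shSCR IgG and 942.2 CPM in shSCR Caprin-1, and at 285.8 CPM in shCerS4 IgG and 418.8 CPM in shCerS4 Caprin-1. Again the libraries of the lines did not overlap. The log2 ratio of shCerS4 over shSCR was −1.17 [−1.20, −1.14] with Caprin-1 and −0.89 [−0.94, −0.85] with IgG, so that the 2-fold limit was passed in the Caprin-1 precipitates and missed in the IgG precipitates.

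Aldh9a1, which oxidises an aldehyde intermediate of carnitine synthesis, stood at 92.5 and 115 CPM in the shSCR IgG and Caprin-1 libraries and at 55.8 and 62.6 CPM in those of shCerS4 cells. Its ratios were −0.88 [−0.97, −0.79] with Caprin-1 and −0.73 [−0.84, −0.62] with IgG, both under 2-fold. Aldh16a1, an atypical member regarded as lacking enzyme activity in mammals, stood at 35.9 and 42.3 CPM in shSCR and at 20.2 and 30.1 CPM in shCerS4 cells. In both genes the libraries of the lines did not overlap. For Aldh16a1 the ratio was −0.49 [−0.63, −0.36] with Caprin-1 and −0.83 [−1.01, −0.65] with IgG.

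The smallest differences belonged to Aldh3a2 and Aldh7a1. Aldh3a2, the fatty aldehyde dehydrogenase that oxidises the hexadecenal released when sphingosine-1-phosphate is cleaved, stood at 154 and 156 CPM in the shSCR IgG and Caprin-1 libraries and at 127 and 139 CPM in those of shCerS4 cells. Its ratios were −0.16 [−0.23, −0.10] with Caprin-1 and −0.28 [−0.35, −0.20] with IgG, and 27.9% and 24.0% of all genes had a lower ratio. Aldh7a1, which oxidises an aldehyde intermediate of lysine breakdown, stood at 58.0 and 72.4 CPM in shSCR and at 45.0 and 58.9 CPM in shCerS4 cells. It was the gene among the 7 whose lines overlapped, since shCerS4 Caprin-1 lay above shSCR IgG, and its ratios were −0.30 [−0.40, −0.20] and −0.36 [−0.49, −0.24].

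Aldh18a1 ran the other way. It encodes the enzyme that turns glutamate into the precursor of proline and is a known target of ATF4, the transcription factor of the integrated stress response. Its mRNA stood at 154 CPM in shSCR IgG and 172 CPM in shSCR Caprin-1, and at 242 CPM in shCerS4 IgG and 332 CPM in shCerS4 Caprin-1. Both shCerS4 libraries were above both shSCR libraries. The ratios of 0.95 [0.90, 1.00] with Caprin-1 and 0.65 [0.59, 0.72] with IgG were under 2-fold.

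**Figure D2:**
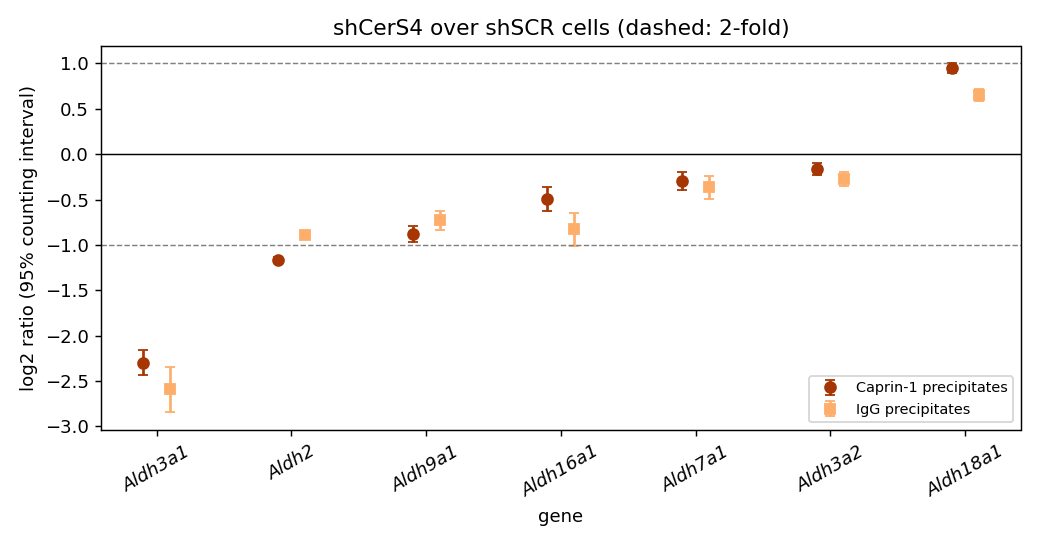
Log2 ratio of shCerS4 over shSCR cells for the 7 genes compared, in Caprin-1 precipitates (circles) and IgG precipitates (squares), with 95% counting intervals from 1 library per group. Aldh3a1 lies at −2.30 and −2.59, and Aldh18a1 is the gene above 0 in both.

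RefSeq promoter windows (GRCm38.p6) were at hand for 5 of the 8 genes. Those of 3 are shown 5′ to 3′ over the 250 bases before the start site that the RefSeq promoter table uses, which lies inside the outer gene boundary for Aldh9a1 and Aldh3a2. They were picked because they belong to the gene with ratios above 0 (Aldh18a1), to a gene with ratios below 0 (Aldh9a1) and to the neighbour of Aldh3a1 whose level differed little (Aldh3a2). Capitals mark matches, on either strand, to the core of the xenobiotic response element bound by the aryl hydrocarbon receptor (GCGTG) or of the antioxidant response element (TGACNNNGC).
Aldh18a1 (chr19:40588464-40588713, minus strand): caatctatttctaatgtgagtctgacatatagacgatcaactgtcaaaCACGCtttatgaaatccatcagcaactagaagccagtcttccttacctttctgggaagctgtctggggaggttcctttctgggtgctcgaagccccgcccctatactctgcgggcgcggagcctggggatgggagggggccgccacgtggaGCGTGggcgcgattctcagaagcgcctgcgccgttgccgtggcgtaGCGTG
Aldh9a1 (chr1:167349741-167349990, plus strand): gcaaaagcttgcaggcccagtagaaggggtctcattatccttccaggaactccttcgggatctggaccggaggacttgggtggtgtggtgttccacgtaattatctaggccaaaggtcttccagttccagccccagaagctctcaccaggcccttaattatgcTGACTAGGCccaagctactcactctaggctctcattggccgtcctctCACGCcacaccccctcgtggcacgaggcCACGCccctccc
Aldh3a2 (chr11:61267187-61267436, minus strand): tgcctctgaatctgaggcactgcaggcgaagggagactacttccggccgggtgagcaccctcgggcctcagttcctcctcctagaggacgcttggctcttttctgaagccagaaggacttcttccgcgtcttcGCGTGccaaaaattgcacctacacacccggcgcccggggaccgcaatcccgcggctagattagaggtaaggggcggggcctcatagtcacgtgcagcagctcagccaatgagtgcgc

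In the full windows, which run on past that start site, the first core matched 3 times in Aldh18a1, 2 times in Aldh9a1 and 1 time in Aldh3a2, with 0 matches in Aldh1b1 and Aldh16a1, which are not shown. So 3 of 5 windows hold it, as do 32.4% of all 32851 promoters. The antioxidant core matched 1 time, in Aldh9a1, and 12.4% of all promoters hold it. A core bound by ATF4 with C/EBP factors (TGATGNAA, both strands), added after the values were seen, matched in none of the 5 windows and is held by 3.97% of all promoters. No marked match overlapped another. A match or its absence describes the letters of the window only.

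In the Caprin-1 precipitates 2 of the 7 genes, Aldh3a1 and Aldh2, were lower past 2-fold and none was higher. Of all genes compared, 4.95% were lower and 6.25% higher past 2-fold. In the IgG precipitates 1 of 7, Aldh3a1, was lower and none was higher, against 5.34% and 5.69% of all genes. The median log2 ratio of the 7 genes was −0.49 with Caprin-1 and −0.73 with IgG, where the median of all genes was 0.15 and 0.10. In 5 of the 7 both shSCR libraries were above both shCerS4 libraries, an order that 17.0% of all genes had, and in 1 the order was reversed, as in 27.2% of all genes. At a limit of 1.5-fold, 1 of 7 was higher and 3 lower with Caprin-1, against 19.2% and 10.9% of all genes, and 1 was higher and 4 lower with IgG, against 17.3% and 11.7%. In either direction 11.2% of all genes were past 2-fold with Caprin-1 and 11% with IgG. Since the list was chosen with results known, these counts describe it and do not set it apart.

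Libraries were scaled to their totals, and the balance of all genes depended on that choice. Of the genes past 2-fold between the Caprin-1 precipitates, 55.8% were higher under total scaling and 44.9% under trimmed-mean scaling, which moved the median of all genes from 0.15 to 0.04. Between the IgG precipitates the shares were 51.6% and 40.8%. No ratio of shCerS4 over shSCR of the 7 genes changed sign under the 4 other scalings. Aldh9a1 reached −1.01 in the Caprin-1 precipitates under one of them and then passed 2-fold, and Aldh18a1 ranged from 0.82 to 0.91.

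**Figure D3:**
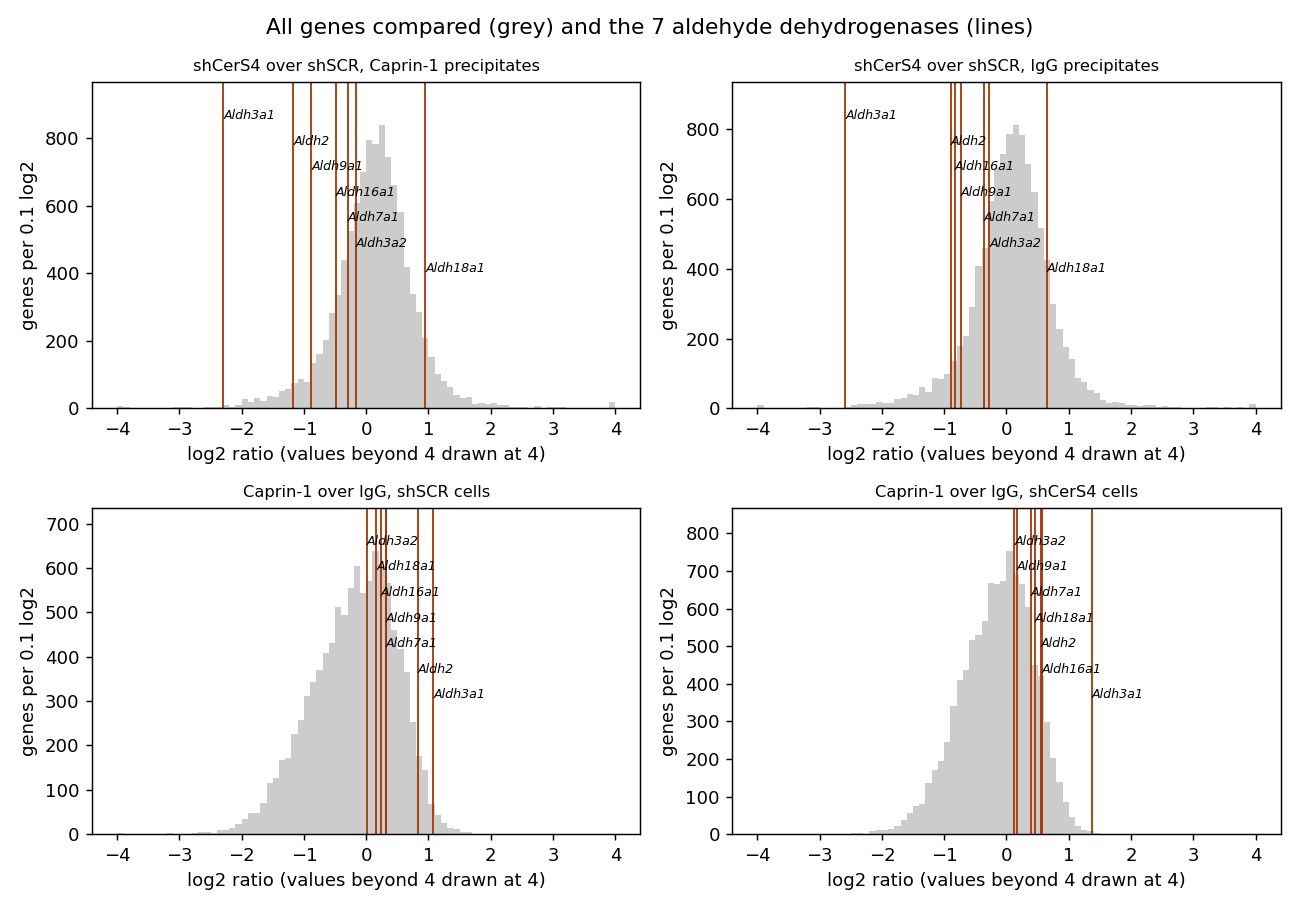
Distribution of the log2 ratio over the 10283 genes compared (grey bars, genes per 0.1 log2) in 4 comparisons, with a line at each of the 7 aldehyde dehydrogenases. In the upper panels Aldh3a1 lies at −2.30 and −2.59 in the lower tail, and in the lower panels all 7 lines are above 0.

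The Caprin-1 precipitates were next set against the IgG precipitates of the same line, to see which of these mRNAs held a larger share of the library with Caprin-1. Values were scaled by each library's total, so these ratios are relative to the other mRNAs of the precipitate and say nothing about yield. All 7 genes compared had a higher level with Caprin-1 than with IgG in both lines, an order shared by 35.7% of all genes, and none was below IgG in both lines, as 50.2% of all genes were. Only Aldh3a1 was past 2-fold, in both lines, so 1 of 7 was higher past 2-fold in shSCR cells, where 1.69% of all genes were, and 1 of 7 in shCerS4 cells, where 0.934% were. None was lower, against 13% and 8.02% of all genes. In either direction 14.7% and 8.96% of all genes were past 2-fold. Aldh3a1 was picked for its place over IgG in shCerS4 cells, so these counts describe the list and do not set it apart.

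For Aldh3a1 the log2 ratio of Caprin-1 over IgG was 1.08 [0.97, 1.18] in shSCR cells, with 119 of the compared genes above it. In shCerS4 cells it was 1.37 [1.12, 1.64], with 11 genes above it. This second value belongs to the reason the gene was picked. For Aldh2 the ratio was 0.83 [0.80, 0.86] in shSCR and 0.55 [0.50, 0.60] in shCerS4 cells, or 1.78-fold and 1.47-fold, and it reached 1.01 in shSCR cells under upper-quartile scaling and 1.00 under median-of-ratios scaling, just past 2-fold.

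The remaining genes had smaller ratios, except that Aldh16a1 stood just above Aldh2 in shCerS4 cells, with overlapping intervals. Aldh7a1 stood at 0.32 and 0.39, Aldh9a1 at 0.32 and 0.17, Aldh16a1 at 0.23 and 0.57 and Aldh18a1 at 0.16 and 0.46 in shSCR and shCerS4 cells. Aldh3a2 was the lowest of the 7, at 0.01 [−0.05, 0.08] in shSCR cells, an interval that includes 0, and 0.13 [0.05, 0.20] in shCerS4 cells. The median of the 7 was 0.32 in shSCR and 0.46 in shCerS4 cells, and that of all genes was −0.13 and −0.11. Trimmed-mean scaling moved the medians of all genes to 0.03 and 0.04 and the share of higher genes among those past 2-fold from 11.5% to 30.2% in shSCR and from 10.4% to 31.5% in shCerS4 cells. Under the 4 other scalings all 7 genes stayed above 0 in both lines. At 1.5-fold, 2 of 7 were higher in shSCR cells, against 11.4% of all genes, and 1 of 7 in shCerS4 cells, against 8.69%. None was lower, where 27.5% and 22.6% of all genes were. The 4 comparisons share libraries, so their values for a gene are not independent of each other.

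**Figure D4:**
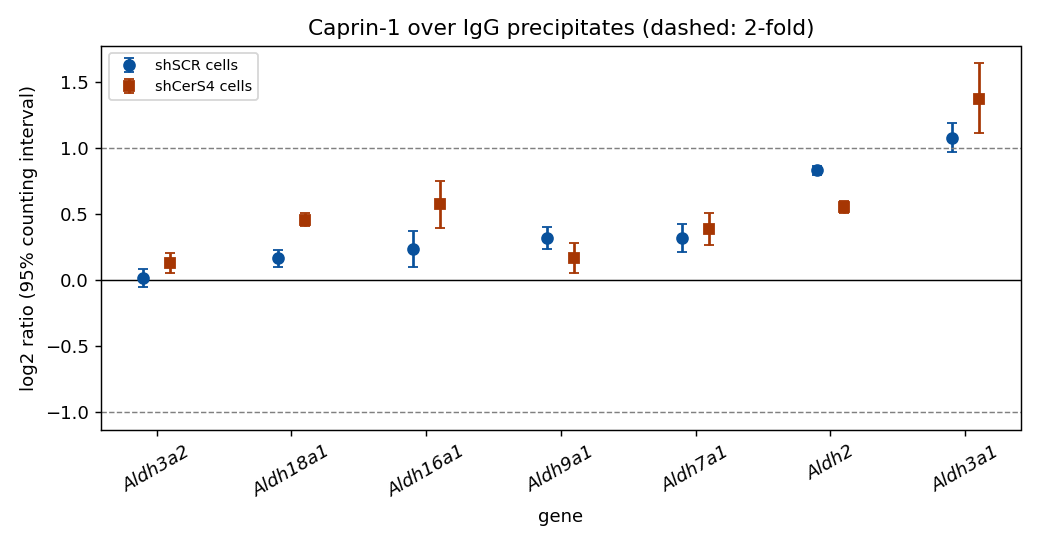
Log2 ratio of Caprin-1 over IgG precipitates for the 7 genes compared, in shSCR cells (circles) and shCerS4 cells (squares), with 95% counting intervals from 1 library per group. Aldh3a1 lies above the dashed 2-fold line in both lines at 1.08 and 1.37, and Aldh3a2 lies nearest to 0.

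Across 10277 genes, which share the libraries, longer genes had lower Caprin-1 over IgG ratios. Spearman's correlation with the length in the genome was −0.54 (shSCR) and −0.48 (shCerS4). For the difference of these ratios, shCerS4 minus shSCR, it was 0.29. For shCerS4 over shSCR it was 0.14 with Caprin-1 and −0.02 with IgG. Aldh3a1 spans 9.91 kb, Aldh16a1 12.7 kb and Aldh9a1 18.6 kb, below the median of 23.5 kb. Aldh2 spans 27.8 kb, Aldh18a1 38.2 kb, Aldh3a2 44.1 kb and Aldh7a1 48.3 kb. The part of gene length in these ratios was not tested.

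Between the lines, Caprin-1 over IgG differed by less than 2-fold in all 7 genes compared, taken as shCerS4 minus shSCR on the log2 scale. Of all genes, 0.632% were higher and 0.35% lower past 2-fold, or 0.982% in either direction. None of the 7 was past 1.5-fold either, where 4.24% were higher and 2.62% lower. It was positive for Aldh16a1 (0.34 [0.12, 0.56]), Aldh18a1 (0.29 [0.21, 0.38]), Aldh3a1 (0.29 [0.02, 0.57]) and Aldh3a2 (0.11 [0.01, 0.21]). Aldh2 (−0.28 [−0.34, −0.22]) and Aldh9a1 (−0.15 [−0.29, −0.01]) were negative, and for Aldh7a1 the interval included 0, at 0.07 [−0.09, 0.23]. With the most abundant transcript entry alone, the intervals of Aldh3a1 (0.14 [−0.15, 0.43]) and Aldh3a2 (0.09 [−0.01, 0.20]) included 0. That entry stood at −0.34 [−0.42, −0.26] for Aldh2 and −0.22 [−0.41, −0.03] for Aldh7a1. For Aldh18a1 it stood at 0.50 [0.41, 0.59] and the lesser entry at −1.38 [−1.65, −1.10]. Aldh1b1, below the filter, stood at −1.5 [−2.59, −0.41], on 17.0 to 67.0 reads per library.

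Several symbols had more than 1 transcript entry, numbered here by abundance, since the deposited values name no transcripts. Reads were shared among entries by the authors' software, and how is not given in the sources used here, so shares of entries are less firm than gene sums. Aldh3a1 and Aldh3a2 had 3 entries and Aldh2, Aldh7a1 and Aldh18a1 had 2. The third entry of Aldh3a1 held 2.91 to 43.3 estimated reads per library, and the first of Aldh3a2 held 88.5% to 94.1% of its gene. Both entries of Aldh2 had like ratios, at −1.25 and −1.08 between the Caprin-1 precipitates and −0.91 and −0.87 between the IgG precipitates. In Aldh3a1 the second entry held 20.1% of the gene's reads in shSCR IgG (95% Clopper-Pearson interval 17.6% to 22.8%) and 18.2% in shSCR Caprin-1 (16.8% to 19.7%). It held 11.7% in shCerS4 Caprin-1 (9.02% to 14.7%), or 60.6 estimated reads, and 0.272 estimated reads in shCerS4 IgG. The first entry alone gave −2.17 between the Caprin-1 precipitates and −2.32 between the IgG precipitates, so the lower level of Aldh3a1 was present without the second entry.

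Aldh18a1 showed an uneven pattern. Its main entry was no higher with Caprin-1 than with IgG in shSCR cells, at −0.08 [−0.15, −0.01], and higher in shCerS4 cells, at 0.42 [0.37, 0.48]. The second entry held 5.48% of the gene's reads in shSCR IgG (4.70% to 6.34%) and 20.2% in shSCR Caprin-1 (19.1% to 21.4%). In shCerS4 cells its share was 13.6% with IgG and 15.7% with Caprin-1. Between the Caprin-1 precipitates the main entry alone was 1.03 [0.97, 1.09], just past 2-fold. For Aldh7a1 the second entry carried the Caprin-1 over IgG ratio in shCerS4 cells, at 1.38 [1.14, 1.63], with the first at −0.03 [−0.17, 0.12].

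**Figure D5:**
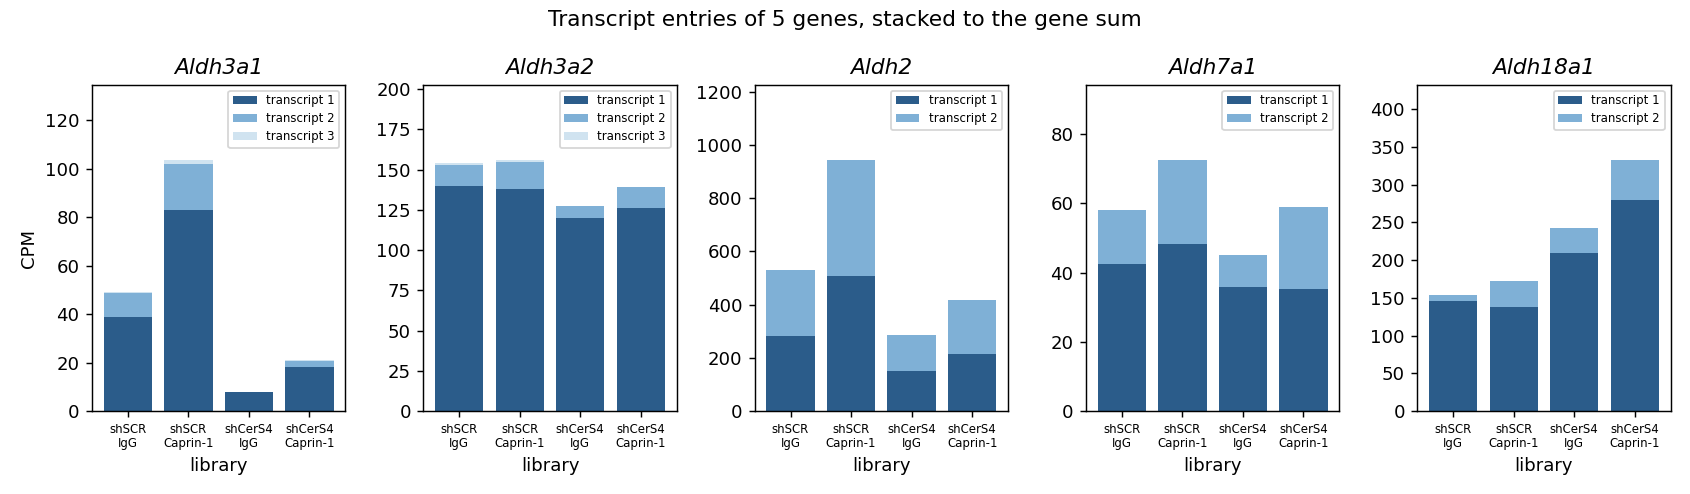
Level in CPM of each transcript entry, stacked to the gene sum, in the 4 libraries for the 5 genes with more than 1 entry; each bar is 1 library and each panel has its own axis from 0. The second entry of Aldh3a1 is not visible in shCerS4 IgG, and the second entry of Aldh18a1 is smallest in shSCR IgG.

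The genes lie on different chromosomes except for Aldh3a1 and Aldh3a2, which are neighbours on chromosome 11 (Aldh3a1 from 61208510 to 61218418 and Aldh3a2 from 61223417 to 61267528, build GRCm38). Their ratios between the Caprin-1 precipitates were −2.30 and −0.16. Among the 10 compared genes nearest to Aldh3a1, 5 on either side, 9 were below 0 between the Caprin-1 precipitates, Aldh3a2 included, with a median of −0.29. The median of all genes was 0.15, and their share below 0 is not given here. Of these neighbours 1, Grap, was lower past 2-fold at −1.71, as were 4.95% of all genes. Around Aldh9a1 (chromosome 1, 167349963 to 167368530) 9 of 10 neighbours were below 0 with Caprin-1 and 10 of 10 with IgG, at medians of −0.63 and −0.50, near the gene's own −0.88 and −0.73. These neighbours ran from 166130221 to 170110836. In each precipitate 2 of them, Nuf2 and Hsd17b7, were lower past 2-fold and none was higher. Of all genes 4.95% were lower with Caprin-1 and 5.34% with IgG. Around Aldh2 (chromosome 5, 121566027 to 121593824) 1 of 10 neighbours was below 0 with Caprin-1 and the median was 0.63. Around Aldh18a1 (chromosome 19, 40550257 to 40588463) 2 of 10 neighbours were below 0 with Caprin-1 and the median was 0.42, on the side of the gene's own 0.95. Around Aldh7a1 (chromosome 18) 2 of 10 were below 0, at a median of 0.59, and the gene itself stood at −0.30. Around Aldh16a1 (chromosome 7, 45141833 to 45154536) 3 of 10 were below 0, at a median of 0.14, and the gene stood at −0.49. Aldh1b1 lies on chromosome 4 (45799022 to 45804608).

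Other members of the family with values were Aldh1a3, Aldh1l2, Aldh3b1, Aldh4a1, Aldh5a1 and Aldh6a1, which brings the family to 14 genes, 11 of them compared. Over these 11, 2 were lower past 2-fold between the Caprin-1 precipitates and 1 between the IgG precipitates, Aldh3a1 and Aldh2 in the first and Aldh3a1 in the second, and none was higher. Of all genes 4.95% and 5.34% were lower in these comparisons and 6.25% and 5.69% higher, and the lists below are read against the same shares. The family median was −0.16 with Caprin-1 and −0.36 with IgG, where that of all genes was 0.15 and 0.10. Aldh3b1 stood at 0.14 and 0.09, the proline-degrading Aldh4a1 at 0.13 and −0.07, Aldh5a1, which oxidises succinic semialdehyde, at 0.48 and 0.61, and Aldh6a1, of valine breakdown, at 0.42 and −0.52. With Caprin-1 over IgG, 9 of the 11 were above 0 in shSCR cells and 10 in shCerS4 cells, at medians of 0.23 and 0.46. The medians of all genes were −0.13 and −0.11. Below 0 were Aldh5a1 in both lines (−0.25 and −0.38) and Aldh6a1 in shSCR cells (−0.18). Aldh1l2, a mitochondrial enzyme of folate metabolism that is also a known ATF4 target, lay below the filter with a mean of 3.67 CPM. It had 15 and 7 estimated reads in the shSCR IgG and Caprin-1 libraries and 178 and 114 in those of shCerS4 cells, log2 ratios of 4.06 [3.07, 5.50] with Caprin-1 and 3.54 [2.82, 4.45] with IgG. Aldh1a3, which makes retinoic acid, had 17 and 5 estimated reads in shSCR and 0 and 1 in shCerS4 cells.

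Enzymes that handle aldehydes outside the family, the alcohol dehydrogenases, aldo-keto reductases, carbonyl reductases and relatives, gave 29 compared genes with a median of 0.20 in both precipitates, and none was past 2-fold between the Caprin-1 precipitates. Between the IgG precipitates Akr1b3, an aldose reductase, was higher at 1.24, Dhrs11 was higher at 1.08 and the aldehyde oxidase gene Aox1 was lower at −1.20. Akr1a1, the most abundant of them, stood at 0.27 with Caprin-1 and 0.32 with IgG. With Caprin-1 over IgG the median was 0.51 in shSCR and 0.49 in shCerS4 cells. That was above the 0.32 and 0.46 of the 7 aldehyde dehydrogenases and the −0.13 and −0.11 of all genes. Akr1b3 was past 2-fold in both lines, at 1.41 and 1.04, and Akr1b10 in shCerS4 cells, at 1.10. Aox1 was lower in shSCR cells, at −1.11. Of all genes 1.69% were higher and 13% lower past 2-fold over IgG in shSCR cells, and 0.934% and 8.02% in shCerS4 cells.

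Aldh3a1 and Nqo1, a quinone reductase gene, both belong to the classic gene battery of the aryl hydrocarbon receptor. Of 8 compared genes of that pathway, 2 were lower past 2-fold in both precipitates, against 4.95% of all genes with Caprin-1 and 5.34% with IgG. These were Ahr, the receptor itself, at −1.05 with Caprin-1 and −1.51 with IgG, and Nqo1 at −1.70 and −1.46. Arnt, the gene of the receptor's dimer partner, stood at 0.20 and 0.09. The target Cyp1b1 stood at −0.44 and −0.71, and Tiparp, another target, at 0.12 and −0.17. The chaperone gene Hsp90ab1, the most abundant, stood at −0.34 and −0.15. The median of the pathway was −0.21 with Caprin-1 and −0.16 with IgG.

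Around Aldh18a1, 14 genes of proline and ornithine metabolism were compared. Pycr1, which completes proline synthesis after Aldh18a1, was higher past 2-fold in both precipitates, at 1.22 with Caprin-1 and 1.12 with IgG. P4ha2, a prolyl hydroxylase of collagen, was at −0.81 with Caprin-1 and lower past 2-fold with IgG, at −1.33. The median was 0.13 with Caprin-1 and 0.01 with IgG. Odc1, the most abundant, stood at 0.12 and 0.03, and Arg2 at 0.81 and 0.51. With Caprin-1 over IgG, Arg2 was higher past 2-fold in shCerS4 cells, at 1.12, and stood at 0.83 in shSCR cells. It was the 1 gene of the list past 2-fold in shCerS4 cells, where 0.934% of all genes were higher. In shSCR cells 1 gene was lower, against 13% of all genes, and none was higher.

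A list of 19 compared genes was drawn around the route that breaks down sphingosine-1-phosphate, where Aldh3a2 acts. Between the Caprin-1 precipitates 4 were higher and 1 lower past 2-fold, and between the IgG precipitates 3 were higher and none lower. The higher genes include Sphk1, whose enzyme makes sphingosine-1-phosphate, at 1.08 with Caprin-1 and 1.16 with IgG, so these counts are not of breakdown alone. Of all genes 6.25% were higher and 4.95% lower with Caprin-1, and 5.69% and 5.34% with IgG. Sgpl1, which makes the hexadecenal that Aldh3a2 oxidises and was named after its values were seen, stood at 126.8 and 82.3 CPM in the shSCR IgG and Caprin-1 libraries and at 226.2 and 178.9 CPM in those of shCerS4 cells. Its ratio was 1.12 with Caprin-1 and 0.83 with IgG, on the opposite side of 0 from Aldh3a2. The acyl-CoA synthetase gene Acsl1 stood at 1.69 and 2.21, Hacd4 at 1.07 and 1.23, Pcyt2 at −1.23 and −0.96, the ethanolamine kinase gene Etnk1 at 0.20 and −0.33 and Acsl4, the most abundant, at −0.23 and −0.72. The list held genes past 2-fold in both directions, and its median was 0.20 with Caprin-1 and −0.02 with IgG. With Caprin-1 over IgG in shSCR cells, 2 of the 19 were lower past 2-fold, Etnk1 at −1.49 and Acsl4 at −1.21, and 1 was higher. Of all genes 13% were lower and 1.69% higher there. In shCerS4 cells none of the list was past 2-fold over IgG.

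Among 6 compared genes of lysine, choline and carnitine metabolism, which include Aldh7a1 and Aldh9a1, 1 was lower past 2-fold in each precipitate, the folate enzyme gene Shmt1 at −1.24 in both, where 4.95% and 5.34% of all genes were lower. Shmt2 stood at −0.50 with Caprin-1 and −0.57 with IgG, and Gcdh, of lysine breakdown, at 0.35 and 0.63.

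Genes whose levels over the 4 libraries were most like those of Aldh3a1 were sought among 7623 genes, leaving out predicted genes and those that averaged under 20 CPM, by the Euclidean distance between log2 levels centred on each gene's own mean. The nearest was Ramp1, which encodes a receptor-modifying protein, at a distance of 0.45. Its levels were 32.1 CPM in shSCR IgG, 46.2 CPM in shSCR Caprin-1, 5.24 CPM in shCerS4 IgG and 11.5 CPM in shCerS4 Caprin-1. It was followed by the thymidine kinase gene Tk1 (0.67), the protease inhibitor gene Slpi (0.67), the cell cycle kinase gene Pkmyt1 (0.74) and Rbmx (0.75), which encodes an RNA-binding protein. With 4 libraries, such a distance is a description only.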

How the data were processed

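RNA from Caprin-1 and IgG precipitates of 4T1 cells was sequenced in 4 libraries made from polyadenylated RNA, 1 per group, as the labels' protocols state. Reads were aligned with STAR in Partek to mm10, per the submitters' processing notes; versions, annotation and strand are not given in the sources used here. The deposited values are CPM per transcript, although they are called raw counts: each column summed to 1e+06, with 0.0001 added to every value, which was subtracted. The reads of each library were estimated from the spacing of its values, searched between 15 and 30 M. Below 40 CPM, 79.8% to 81.2% of gene values and 28.8% to 31.4% of transcript values then lay within 0.05 reads of a whole number, so no count test was run. A total of 3 reads is 0.111 to 0.152 CPM.

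Of 24393 transcripts summed into 12967 symbols, 12957 matched the RefSeq table. Ratios used 0.5 added reads and library totals. Intervals are exact conditional binomial ones, and normal ones on the log scale for the difference of ratios. The calculation was tested on simulated counts. All 8 genes, and every other family member with values, were named. Each other list gave its gene of highest mean level and at most 4 more by the size of their ratios in any comparison. Sgpl1, Sphk1 and Tiparp were added after their values were seen. Of these, 1 gene is not reported here. Members and lists were chosen with earlier results of these data known. Work was done in Python 3.11.15 with numpy 2.4.6, scipy 1.17.1, pandas 2.3.3 and matplotlib 3.10.9.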

Additional observations from a re-analysis of the deposited data

How the results depend on the processing

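No paired analysis was possible because each group had 1 library. Among the 11 alternatives, the filters, the 1.5-fold limit and the setting without an interval alter calls only. They could not change the sign of a ratio. With 11 alternatives each, 35 of the 40 ratios of the 8 genes kept their sign in all, and none past 2-fold changed sign. The other 5 were Aldh18a1 and Aldh3a2 over IgG in shSCR cells (−0.08 and −0.02 with the most abundant transcript alone), Aldh7a1 over IgG in shCerS4 cells and its difference between lines (−0.03 and −0.22, likewise), and Aldh1b1 over IgG in shCerS4 cells (−0.05 with 5 reads added). Counts of these genes past 2-fold moved as follows. Over IgG in shSCR cells 2 in place of 1 were higher under median-of-ratios and upper-quartile scaling (Aldh2 joined), with a filter of 1 CPM or none (Aldh1b1 joined) and at 1.5-fold. The genes higher there out of all 10283 went from 174 to 448 and 461 under those scalings. With those filters 262 of 11570 and 418 of 12967 genes were higher, and at 1.5-fold 11.4%. Between Caprin-1 precipitates 3 in place of 2 were lower under median-of-ratios scaling (Aldh9a1 joined) and at 1.5-fold. The same count was reached with a filter of 1 CPM or none (Aldh1b1 joined). The genes lower there out of all 10283 went from 509 to 617 under that scaling and were 10.9% at 1.5-fold. With those filters 701 of 11570 and 927 of 12967 genes were lower. Between the same precipitates 1 in place of 0 was higher with the most abundant transcript and at 1.5-fold, against 727 of 10037 and 19.2% of all genes. Between IgG precipitates 1 was higher and 4 in place of 1 lower at 1.5-fold, where 17.3% and 11.7% of all genes were. For the difference between lines 1 in place of 0 was lower with a filter of 1 CPM or none, which is Aldh1b1. With these filters 177 of 11570 and 311 of 12967 genes were lower. Over all family and pathway lists together, 4 genes were past 2-fold over IgG in shCerS4 cells, and 2 with a filter of 20 CPM. Of all genes 96 were higher and 825 lower there, against 53 and 571 of 7727 with that filter. In shSCR cells there were 8, and 14 under median-of-ratios scaling, 15 under upper-quartile scaling and 15 without a filter. Of all genes 174 were higher and 1337 lower there, against 448 and 918, 461 and 910, and 418 and 2050 of 12967 in those settings. For the difference there were 0, and 1 with a filter of 1 CPM, 3 without a filter and 3 with the most abundant transcript. Of all genes 65 were higher and 36 lower, against 230 and 177, 457 and 311, and 278 and 174 in those settings. Between Caprin-1 precipitates there were 11, and between IgG precipitates 12, and 7 with a filter of 20 CPM. Between the IgG precipitates 585 of all genes were higher and 549 lower, against 297 and 338 of 7727 with that filter. With the limit at 1.5-fold in place of 2-fold the list counts were, in the same order, 28, 30, 4, 26 and 33. At 1.5-fold, 8.69%, 11.4%, 4.24%, 19.2% and 17.3% of all genes were higher, and 22.6%, 27.5%, 2.62%, 10.9% and 11.7% lower. At 2-fold, 8.96%, 14.7%, 0.982%, 11.2% and 11% were past the limit in either direction. The lists overlap, and a gene on several of them was counted 1 time. The total of their compared genes is not given here. These counts are therefore not shares and do not set the lists apart from all genes. Depth limits Aldh1b1, Aldh1a3 and Aldh1l2 and some lesser transcript entries, with under 100 reads in at least 1 library.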
